A study of Mus musculus with 2 samples.

Results

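The testis-specific serine kinases are a family of 6 mouse genes, Tssk1 to Tssk6, taken here by gene symbol from the count tables of both libraries. All 6 were present among 39232 genes, and all 6 had counts in each library, where 36476 genes had a count in the high-fat library and 36598 in the tissue-titled library. They were followed through the germ cell stages, from spermatogonia, the dividing cells of the germ line, through spermatocytes, the cells in meiosis, to spermatids, the haploid cells that turn into sperm.

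The study used male C57 BL/6 mice that arrived at 5 weeks of age, had 1 week of adaptation and were then split into 10 mice given a high-fat diet (60% of kcal from fat) and 10 kept on maintenance feed, for 12 weeks. Testis tissue was measured by droplet single-cell RNA sequencing in 2 libraries. The title of 1 library names the high-fat diet and that of the other names the tissue alone, so the names high-fat library and tissue-titled library are used, and no diet is assumed for the second. All animals were C57 BL/6 males of one age with no genetic change named, and the number of mice behind a library was not given.

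The high-fat library held 201842085 unique molecular identifiers (UMIs, each standing for 1 captured transcript) in 12661 barcodes, and the tissue-titled library 207667609 in 13805. After filters and doublet calls 12196 cells of the high-fat library and 13286 of the other were kept and clustered together without the 6 kinases, their partners and the other kinases named here. Each cluster was named once from marker genes, in the library that held most of its cells, and its cells of both libraries took that name. Clusters with fewer than 50 cells in each library were judged on the cells of both. Every stage name means cells like that stage by their transcripts. Germ cells are the labelled cell type, but Sertoli cells, the nurse cells of the tubule, numbered 1249 in the high-fat library and 763 in the other, and Leydig, stromal, vessel and immune cells were found too. The libraries stood apart: most germ cell stages were held by different clusters in each, and elongating spermatids were the spermatid stage whose cells shared 1 cluster. With 1 library of each title there is no replicate, so no test was possible. "Higher" and "lower" compare these libraries and not the diets, and every interval is a 95% interval for counting error alone.

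Tssk proteins are serine/threonine kinases made in the germ line after meiosis, while the round spermatid builds its acrosome and flagellum and packs its DNA. TSSK1 and TSSK2 bind the substrate protein TSKS, and male mice that lack both are infertile. Loss of Tssk3 or Tssk6 also makes male mice infertile and loss of Tssk4 lowers their fertility. TSSK6, also called SSTK, takes part in DNA condensation in mouse spermatids and is helped by the co-chaperone TSACC.

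In mouse genome build GRCm38 (GENCODE M21), the versioned gene IDs of all 6 members match the files. Tssk1 (ENSMUSG00000041566.3) and Tssk2 (ENSMUSG00000045521.7) lie side by side on chromosome 16 and each consists of 1 exon. Tssk3 (ENSMUSG00000000411.7) is on chromosome 4 with 2 exons, Tssk4 (ENSMUSG00000007591.15) on chromosome 14 with 4, Tssk5 (ENSMUSG00000060794.8) on chromosome 15 with 8, and Tssk6 (ENSMUSG00000047654.6) on chromosome 8 with 1. The coding sequences of Tssk1 and Tssk2 are identical at 81.4% of 1050 aligned bases and share a run of 113 bases, so reads from that run cannot be assigned to one of them. The other 14 pairs are identical at 59.8% to 64.6% of aligned bases and share no run longer than 14 bases. Tssk1 lies within Dgcr2 on the opposite strand, with 3700 bases of overlap, and Tssk6 overlaps Yjefn3 (529 bases) and Ndufa13 (375 bases), also on the opposite strand. Use of strand in the counting is not given in the sources used, and without strand the reads of such pairs cannot be told apart.

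The 150 bases before the annotated start of transcription are shown for the 5 members with an entry in the RefSeq promoter table (GRCm38.p6), because the members share a spermatid pattern and the cyclic AMP response factors CREB and CREM are known for binding TGACGTCA and its core TGACG in promoters of spermatid genes. Capitals mark a match to TGACNTCA, a form of that site in which the base between TGAC and TCA is free, or to TGACG, each searched on both strands. The form TGACNTCA was added after the sequences had been read.
Tssk1, chr16:17894053-17894202, plus strand: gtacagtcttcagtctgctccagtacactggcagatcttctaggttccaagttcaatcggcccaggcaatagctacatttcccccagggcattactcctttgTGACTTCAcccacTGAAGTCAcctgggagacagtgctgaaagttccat
Tssk2, chr16:17898487-17898636, plus strand: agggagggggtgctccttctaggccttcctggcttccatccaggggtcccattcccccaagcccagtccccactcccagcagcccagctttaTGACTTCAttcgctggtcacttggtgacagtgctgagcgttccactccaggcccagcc
Tssk3, chr4:129490771-129490920, minus strand: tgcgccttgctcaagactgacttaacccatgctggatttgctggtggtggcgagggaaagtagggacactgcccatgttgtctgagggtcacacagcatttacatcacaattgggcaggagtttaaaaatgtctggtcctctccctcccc
Tssk4, chr14:55650034-55650183, plus strand: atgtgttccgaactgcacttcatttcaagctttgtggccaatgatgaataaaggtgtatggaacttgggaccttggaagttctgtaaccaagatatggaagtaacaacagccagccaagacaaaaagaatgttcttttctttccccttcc
Tssk6, chr8:69902034-69902183, plus strand: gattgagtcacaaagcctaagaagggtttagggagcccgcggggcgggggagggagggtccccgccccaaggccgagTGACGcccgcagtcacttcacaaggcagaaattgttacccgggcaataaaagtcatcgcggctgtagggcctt

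TGACNTCA was found in 2 of the 5 stretches searched, once in Tssk2 at 58 to 51 bases before the start, and at 2 places in Tssk1, at 48 to 41 bases before the start on the gene's strand and at 35 to 28 on the other. It was found in 7.49% of 32851 promoter windows of 250 bases. TGACG was found in Tssk6 alone, at 73 to 69 bases before the start, and in 17.8% of all windows. TGACGTCA itself was in none of the 5 and in 1.55% of all windows. A match describes the letters of the window and is neither a shown binding site nor a cause of the levels below, and where no match was found these letters are not in the window.

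Among the named germ cell stages, all 6 kinases had their highest level in a spermatid stage, in both libraries, and the stage of the peak was the same in both for each gene. Tssk4 and Tssk5 were highest in middle round spermatids, Tssk1 and Tssk2 in late round spermatids, and Tssk3 and Tssk6 in elongating spermatids. The middle round clusters of both libraries had no marker among their leading genes and were named by the mean log2 fold of the stage markers. An early and a late round cluster, held mostly by the high-fat library, were named in the same way. Among all genes ranked, 32.7% of 12489 in the high-fat library and 32.6% of 12289 in the tissue-titled library had their highest level in a spermatid stage. Levels are given as CPM, the counts of a gene per 1000000 UMIs of the stage. A CPM is not corrected for gene length, so levels are compared between stages and libraries and not between genes.

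**Figure D1:**
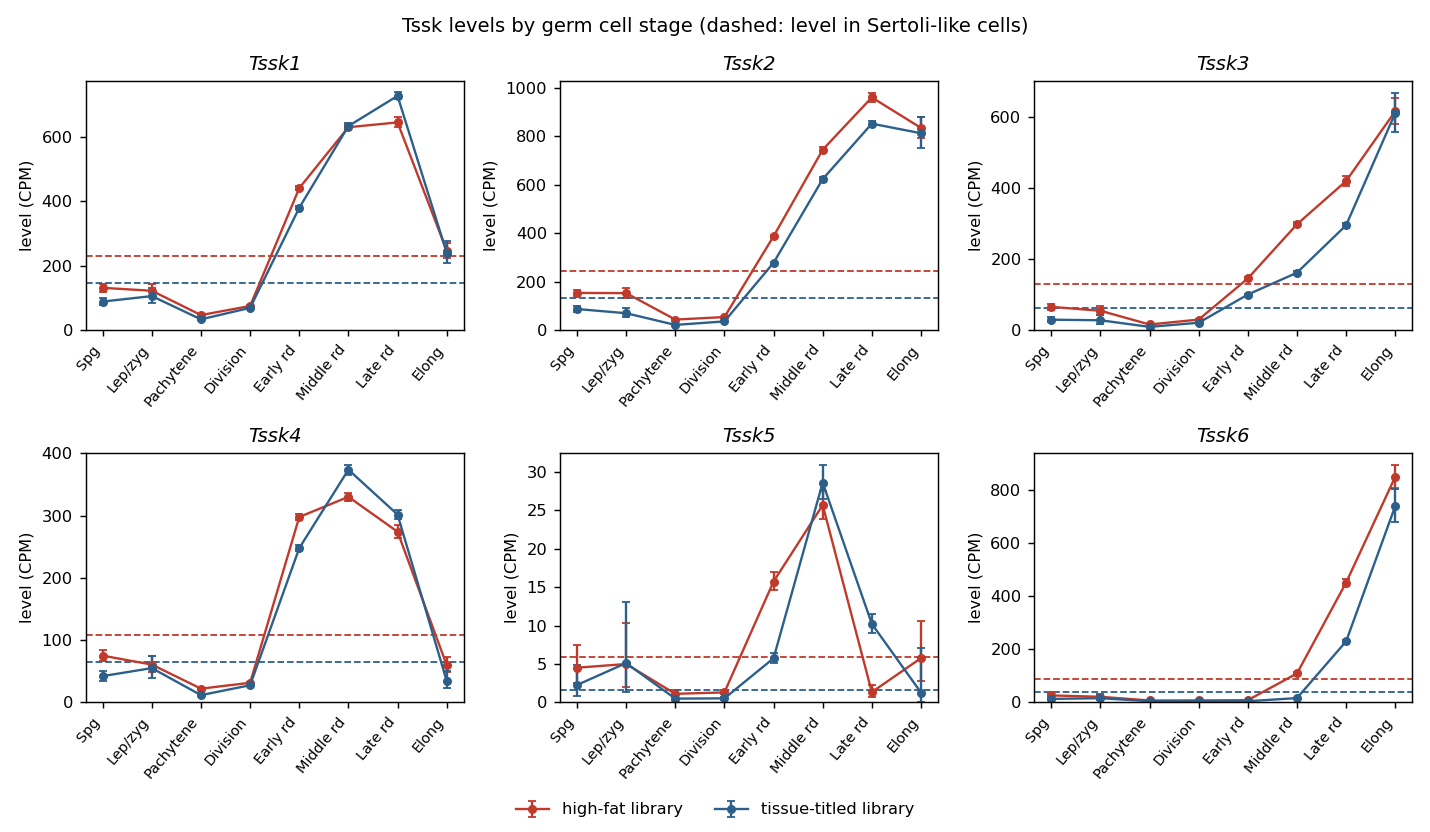
Level of each Tssk gene (CPM, vertical axis, starting at 0) in the 8 germ cell stages (horizontal axis, in order of development), with the high-fat library in red and the tissue-titled library in blue, bars for 95% Poisson intervals and dashed lines for the level in Sertoli-like cells of the same library. All 6 genes are highest in a spermatid stage, from the middle round spermatids of Tssk4 and Tssk5 to the elongating spermatids of Tssk3 and Tssk6.

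Tssk4, a kinase needed for the structure of the sperm flagellum in mice, had most of its gain between the last spermatocytes and the first spermatids. In the high-fat library it was at 31.3 CPM (30.0 to 32.8) in spermatocytes near the meiotic divisions, 298 CPM (293 to 303) in early, 330 CPM (324 to 336) in middle and 274 CPM (264 to 285) in late round spermatids, and 59.8 CPM (48.9 to 72.5) in elongating ones. In the tissue-titled library it was at 27.4 CPM (26.0 to 28.8), 248 CPM (243 to 252), 374 CPM (366 to 382), 302 CPM (295 to 308) and 34.4 CPM (22.7 to 50.1) in the same stages. The early round level was 9.50 times that of the spermatocytes in the high-fat library and 9.04 times in the other. The elongating level lay below that of Sertoli cells, which was 108 CPM in the high-fat library and 64.7 CPM in the other.

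Tssk5, another kinase of the family, gave few counts, so its intervals are wide, and the libraries differed in late round spermatids. The high-fat library had Tssk5 at 1.29 CPM (1.02 to 1.60) in spermatocytes near the divisions, 15.7 CPM (14.6 to 16.9) in early, 25.7 CPM (23.9 to 27.5) in middle and 1.32 CPM (0.705 to 2.26) in late round spermatids. The tissue-titled library had it at 0.512 CPM (0.340 to 0.740), 5.73 CPM (5.10 to 6.42), 28.6 CPM (26.4 to 30.9) and 10.2 CPM (8.99 to 11.6) in the same stages. The late round level rested on 13 counts in the high-fat library and 251 in the other, and the elongating level, 5.75 CPM (2.76 to 10.6) in the high-fat library and 1.27 CPM (0.0323 to 7.10) in the other, on 10 counts and 1 count. Late round spermatids were the second highest stage of Tssk5 in the tissue-titled library, and in the high-fat library they were lower than elongating ones, with an elongating over late ratio of 4.35 (1.71 to 10.7).

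Tssk1, the kinase that together with TSSK2 binds TSKS, was nearly as high in middle as in late round spermatids. Its level in the high-fat library was 75.4 CPM (73.2 to 77.6) in spermatocytes near the divisions, 441 CPM (435 to 447) in early, 630.5 CPM (622 to 639) in middle and 645 CPM (630 to 661) in late round spermatids, and 247 CPM (225 to 272) in elongating ones. Its level in the tissue-titled library was 69.6 CPM (67.4 to 71.8), 380 CPM (375 to 386), 634 CPM (624 to 644), 728 CPM (717 to 739) and 241 CPM (208 to 278) in the same stages. The late over middle ratio was 1.02 (0.995 to 1.05) in the high-fat library, within counting error of 1, and 1.15 (1.12 to 1.17) in the other. Sertoli cells had 229 CPM (212 to 248) in the high-fat library and 148 CPM (131 to 167) in the other, at lower depth than elongating spermatids.

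Tssk2 kept its level longer than its neighbour Tssk1. Tssk2 in the high-fat library was at 54.3 CPM (52.5 to 56.2) in spermatocytes near the divisions, 388 CPM (382 to 393) in early, 745 CPM (735 to 755) in middle and 961 CPM (942 to 980) in late round spermatids, and 835 CPM (793 to 879) in elongating ones. Tssk2 in the tissue-titled library was at 36.4 CPM (34.8 to 38.0), 278 CPM (274 to 283), 624 CPM (613 to 634), 852 CPM (841 to 864) and 813 CPM (751 to 879) in the same stages. The elongating over late ratio of Tssk2 was 0.869 (0.822 to 0.919) in the high-fat library and 0.954 (0.880 to 1.03) in the other, where it lay within counting error of 1. The same ratio of Tssk1 was 0.383 (0.347 to 0.423) in the high-fat library and 0.331 (0.285 to 0.382) in the other, so the neighbours differed in the last step by more than counting error in both libraries.

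Tssk3, a kinase that male mice need for fertility, was higher in CPM at each step into the spermatid series. The level of Tssk3 in the high-fat library was 30.0 CPM (28.6 to 31.4) in spermatocytes near the divisions, 146 CPM (142 to 149) in early, 298 CPM (292 to 305) in middle and 420 CPM (408 to 433) in late round spermatids, and 617 CPM (581 to 655) in elongating ones. That in the tissue-titled library was 21.1 CPM (19.9 to 22.4), 100.5 CPM (97.8 to 103), 162 CPM (157 to 167), 296 CPM (289 to 303) and 612 CPM (558 to 669) in the same stages. The last step was a ratio of 1.47 (1.37 to 1.57) in the high-fat library and 2.07 (1.88 to 2.27) in the other. Across all genes the median of this step was 0.834 in the high-fat library and 0.768 in the other, and 9.63% and 12.0% of genes were at least 2-fold higher in elongating than in late round spermatids. The Tssk3 count per cell went the other way at this step in both libraries, with elongating cells far shallower. The high-fat library had 4128 counts in 418 late round and 1072 in 235 elongating spermatids. The other had 7264 in 1328 and 480 in 146.

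Tssk6, which takes part in packing the DNA of the spermatid, was the last to appear. Cells of the high-fat library had Tssk6 at 7.10 CPM (6.45 to 7.80) in spermatocytes near the divisions, 7.98 CPM (7.18 to 8.84) in early, 108 CPM (105 to 112) in middle and 450.2 CPM (437 to 464) in late round spermatids, and 848 CPM (806 to 893) in elongating ones. Cells of the tissue-titled library had it at 3.88 CPM (3.37 to 4.44), 4.09 CPM (3.56 to 4.67), 15.8 CPM (14.2 to 17.6), 229 CPM (223 to 235) and 738 CPM (679 to 800) in the same stages. The early over spermatocyte ratio was 1.12 (0.976 to 1.29) in the high-fat library and 1.05 (0.867 to 1.28) in the other, within counting error of 1, whereas for the other 5 genes it lay between 4.76 and 12.2 in both libraries. The largest step of Tssk6 was from early to middle round spermatids in the high-fat library, with a ratio of 13.6 (12.2 to 15.2), and from middle to late ones in the other, with 14.5 (13.0 to 16.2).

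Transcripts of all 6 genes were also counted in cells that should lack them. A Sertoli cell is shallower than most germ cells, so its CPM can lie above that of a deep cell type that holds as many counts per cell. Sertoli cells, with a median of 1532 UMIs in the high-fat library and 1348 in the tissue-titled library, had a Tssk1 UMI in 34.4% (31.8 to 37.1) and 24.2% (21.2 to 27.4) of cells. In early round spermatids, with medians of 20883 and 15368 UMIs, the shares were 97.7% (96.9 to 98.3) and 97.8% (97.2 to 98.3). With each cell thinned to 2000 UMIs the share in early round spermatids was 56.3% in the high-fat library and 53.4% in the other, where 18 and 26 shallower cells were left out. In Sertoli cells it was 30.3% in the high-fat library and 23.2% in the other, where 916 and 612 were left out. Levels in spermatogonia, Tssk5 aside, were between 25.9 and 154 CPM in the high-fat library and between 12.8 and 89.0 CPM in the other. All lay below the Sertoli level of the same gene, at median depths of 2281 and 2313 UMIs, and their source was not tested. In pachytene spermatocytes all 6 genes were lower still, from 1.11 CPM for Tssk5 to 47.0 CPM for Tssk1 in the high-fat library and from 0.478 to 33.7 CPM in the other.

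Counts per cell keep the depth of the cells in view. In the high-fat library Tssk1 averaged 0.503 counts per Sertoli cell, 1.37 per pachytene spermatocyte, 10.9 per early and 15.2 per late round spermatid, and 1.83 per elongating one. In the tissue-titled library these means were 0.354, 0.726, 6.87, 13.5 and 1.29 counts. Tssk6 averaged 10.6 counts per late round and 6.27 per elongating spermatid in the high-fat library, at median depths of 20976 and 3926 UMIs, and 4.24 and 3.97 counts in the other, at 15207 and 3339 UMIs. The CPM of Tssk6 was therefore highest in elongating spermatids, while its count per cell was higher in late round spermatids in the high-fat library, 10.6 (10.3 to 10.9) against 6.27 (5.96 to 6.60) in elongating ones. In the tissue-titled library the intervals of the counts per cell overlapped, at 4.13 to 4.35 in late round and 3.65 to 4.30 in elongating spermatids.

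The kinases were seen together in single cells. With each cell thinned to 2000 UMIs, a cell of the high-fat library showed on average 0.357 of the 6 genes in pachytene spermatocytes, 1.79 in early, 2.55 in middle and 2.91 in late round spermatids, 2.65 in elongating ones and 1.16 in Sertoli cells. A cell of the tissue-titled library showed 0.185, 1.54, 2.34, 2.82, 2.59 and 0.715 in the same cell types. Without thinning, at least 4 of the 6 were seen in 92.1% of late round spermatids of the high-fat library and 91.3% of those of the other. All 6 were seen in 21.2% and 5.74% of middle round and in 3.11% and 11.4% of late round spermatids of the high-fat library and the other, at median depths of 18306 and 13575 UMIs in middle round and 20976 and 15207 UMIs in late round spermatids.

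The order of the genes was looked at without stage borders by sorting the spermatids of each library on a score, late minus early spermatid markers, and cutting them into 10 groups of equal size. The order of the peaks was that by stage except for Tssk2, which was highest together with Tssk3 and Tssk6 and after Tssk1. Tssk4 was highest in group 5 in the high-fat library and group 7 in the tissue-titled library, Tssk5 in groups 6 and 7, Tssk1 in groups 8 and 9, and Tssk2, Tssk3 and Tssk6 in the last group, 10, in both. Group 10 was 63.1% and 81.0% late round spermatids, so it does not set elongating ones apart and gives no order among these 3 genes. The groups of the Tssk4 and Tssk1 peaks were mainly early (67.9%) and middle round (89.4%) in the high-fat library. In the other they were mainly middle (93.0%) and late round (91.2%). The first group to reach 50% of a gene's own highest level was 1 and 2 for Tssk4, 2 and 3 for Tssk1, 4 and 5 for Tssk5, 4 and 6 for Tssk2, 7 and 8 for Tssk3, and 10 and 9 for Tssk6. Tssk6 stayed below 5% of its highest level through group 6 in the high-fat library (4.96% there) and through group 7 in the other (4.56%). Tssk5 was below 50% again after group 7 in the high-fat library and group 8 in the other, and stood at 3.75% and 5.15% in group 10.

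**Figure D2:**
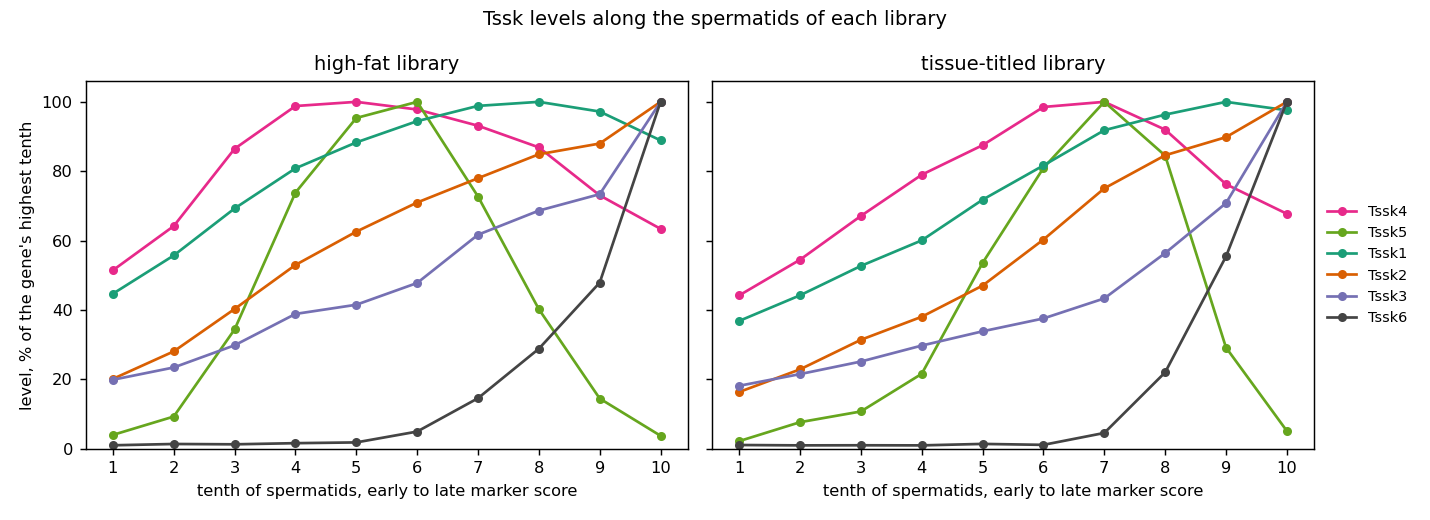
Level of each Tssk gene as a percent of its own highest value (vertical axis) in 10 equal groups of spermatids sorted from early to late by marker score (horizontal axis), with the high-fat library on the left and the tissue-titled library on the right. Tssk4 is at 51.5% and 44.2% of its highest value in the first group, whereas Tssk6 is at 1.01% and 1.09% there and is highest in the last group.

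Between the libraries, the 4 genes Tssk1, Tssk2, Tssk4 and Tssk3 differed by less than 1.5-fold over all spermatids, and Tssk6 was higher in the high-fat library. Tssk6 was at 109 CPM in the high-fat library and 67.9 CPM in the tissue-titled library, a ratio of 1.60 (1.55 to 1.65). It was the 1 member of 6 past 1.5-fold and none was lower by that much, against 20% of 19878 genes higher and 14.2% lower, so the count of members is close to the background. Tssk5 had a ratio of 1.46 (1.36 to 1.58), Tssk3 1.44 (1.41 to 1.47), Tssk2 1.17 (1.15 to 1.18), Tssk4 1.05 (1.03 to 1.07) and Tssk1 1.01 (0.997 to 1.02). The median log2 ratio of the 6 was 0.37, and that of all genes was 0.054. Over all kept cells, which needs no stage names, 1 member was again past the fold, Tssk6 at 60.9 CPM in the high-fat library and 40.5 CPM in the other with a ratio of 1.51 (1.46 to 1.55), against 20.5% of 23796 genes higher and 12.1% lower.

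The cells fell differently over the stages. The high-fat library had 1865 early, 1368 middle, 418 late and 235 elongating spermatids, and the tissue-titled library had 2887, 1324, 1328 and 146. With the 4 stages weighted equally the log2 ratio of Tssk6 was 0.52, against 0.68 over all spermatids, and no member was past 1.5-fold. A spermatid held 2.48 Tssk6 counts on average in the high-fat library and 1.19 in the other, and a Sertoli cell 0.192 and 0.0891. With the counts of a Sertoli cell subtracted from each spermatid the log2 ratio was 0.67. Subtraction of the Sertoli CPM gave -0.55, but that CPM, from far shallower cells, exceeds the whole level of early round spermatids, and no direction is read from it.

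Stage by stage, the ratios of Tssk6 and Tssk5 varied most. In early round spermatids Tssk5 had a ratio of 2.74 (2.40 to 3.15) and Tssk6 1.95 (1.65 to 2.32), and they were the 2 members of 6 past 1.5-fold, against 21.8% of genes higher and 13.1% lower. A cell of that stage held 0.197 Tssk6 counts in the high-fat library and 0.0738 in the other, near the 0.192 and 0.0891 counts of a Sertoli cell. In middle round spermatids Tssk6 had a ratio of 6.86 (6.14 to 7.67) and Tssk3 of 1.84 (1.77 to 1.91), again 2 of 6, against 25.9% of genes higher and 18.8% lower. Tssk6 was seen in 64.4% of these cells in the high-fat library and in 16.9% in the tissue-titled library, at median depths of 18306 and 13575 UMIs. Thinned to 2000 UMIs the shares were 17.8% (15.8 to 19.9) and 3.29% (2.39 to 4.41), and in Sertoli cells they were 15.0% and 5.30%. In the tissue-titled library the thinned share thus lay below that of Sertoli cells, while the level in this stage was 3.87 times (3.26 to 4.61) that in early round spermatids of like depth.

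In late round spermatids Tssk6 had a ratio of 1.96 (1.89 to 2.04) and Tssk5 of 0.130 (0.0680 to 0.226), so 1 member was higher and 1 lower, against 17.3% of genes higher and 23.1% lower. These stages are held by different clusters in each library, and where the border between them falls was decided by clustering. The log2 ratio of Tssk6 in middle round spermatids was 2.78 here, 2.64 with each library clustered on its own, 1.32 with 4000 variable genes, 1.00 at the finer resolution of 2 and -0.24 with called doublets kept. That of Tssk5 in late round spermatids was -2.95 here, -0.28 with 4000 variable genes and 1.14 with called doublets kept.

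In elongating spermatids, the spermatid stage whose cells fell in the same cluster in both libraries, 3 genes were nearly level. Tssk1 had a ratio of 1.03 (0.864 to 1.23), Tssk2 of 1.03 (0.935 to 1.13) and Tssk3 of 1.01 (0.905 to 1.13), each within counting error of 1. Tssk6 had a ratio of 1.15 (1.04 to 1.27). Tssk4 was past 1.5-fold with 1.74 (1.13 to 2.76) from 104 and 27 counts, at levels below those of Sertoli cells, against 14.5% of 4964 genes higher and 8.86% lower. For Tssk5, with 10 counts in the high-fat library and 1 in the other, the interval of the ratio (4.52, 0.642 to 196) included 1.

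**Figure D3:**
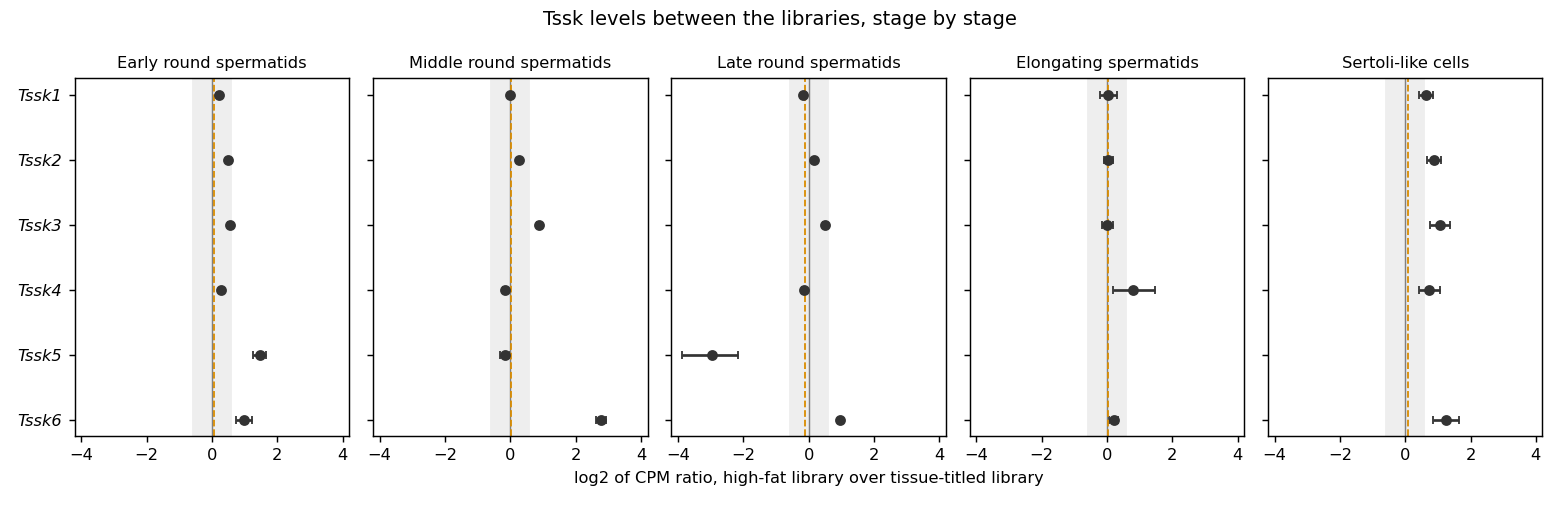
Log2 of the CPM ratio, high-fat library over the tissue-titled library (horizontal axis), for each Tssk gene (vertical axis) in the 4 spermatid stages and in Sertoli-like cells, with 95% intervals for counting error. Grey marks less than 1.5-fold, the dashed line is the median of all genes in that stage, and Tssk5 is not drawn where a library had 3 counts or fewer. Tssk1, Tssk2 and Tssk3 lie at 0 in elongating spermatids and all drawn genes lie above 0 in Sertoli-like cells.

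Members past 1.5-fold were also found in cells that should not make them and in earlier germ cells, though not for every gene. In Sertoli cells the 5 members with at least 50 counts were all past 1.5-fold, from 1.55 (1.34 to 1.79) for Tssk1 to 2.35 (1.79 to 3.12) for Tssk6, against 23.7% of genes higher and 11.2% lower. Tssk5 had 16 counts in the high-fat library and 3 in the other, a ratio of 3.55 (1.02 to 19.0). Spermatogonia shared a cluster between the libraries, as elongating spermatids did, and so did leptotene and zygotene spermatocytes. In spermatogonia 4 of the 5 members with at least 50 counts were past 1.5-fold, up to 2.22 (1.71 to 2.91) for Tssk3, against 13.7% of genes higher and 9.42% lower. In leptotene and zygotene spermatocytes Tssk2, with 2.18 (1.61 to 2.99), and Tssk3, with 1.95 (1.20 to 3.29), were past it out of 4 members, against 16.3% higher and 9.85% lower. In pachytene spermatocytes 4 of 5 were past it, up to 2.00 (1.82 to 2.20) for Tssk2, against 20.7% higher and 13.2% lower. In spermatocytes near the divisions Tssk5, with 2.51 (1.61 to 4.02), and Tssk6, with 1.83 (1.55 to 2.17), were past it out of 6, against 20.3% higher and 10.5% lower. Tssk1 was past it in none of the 4 earlier germ cell stages, with ratios from 1.08 to 1.48, and no member was lower by that much in any of these cell types. The part of free RNA in these ratios was not tested.

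Several of the genes whose stage profile was most like that of a kinase are known for work in the late spermatid and the sperm. Likeness is Pearson's r of log2(CPM + 1) over 16 points, 8 stages in each of 2 libraries, among 11610 genes. The points of a library share its cells, depth and free RNA, so r is a description. Tssk1 was most like Actl7a (r = 0.992), an actin-like protein of the sperm head, with Fam83e and BC050972 next. Tssk2 was most like Spata19 (r = 0.999), a mitochondrial protein of the sperm midpiece, with Tmem247 and 1700019D03Rik next. Tssk3 was most like Fam187b (r = 0.994), followed by Gapdhs, the sperm form of a glycolytic enzyme and one of the markers used to name late round spermatids, and 4930571K23Rik.

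Tssk4 was most like Fam24a (r = 0.995), Odf3l1, a relative of an outer dense fibre gene, and Prr27. Tssk5 had the lowest top value (r = 0.940, with 1700041C23Rik), followed by Spam1, the sperm surface hyaluronidase, and 1700021F02Rik. Spam1 too was low in late round spermatids of the high-fat library, at 12.7 CPM against 62.6 CPM in the tissue-titled library. Tssk6 was most like Spatc1 (r = 0.998), which encodes speriolin of the sperm neck, with H2al2a, a histone variant of condensing spermatids, and Spem1, needed to shed cytoplasm from sperm, next. Spatc1 in middle round spermatids stood at 41.3 CPM in the high-fat library and 8.47 CPM in the other, a gap of the same direction as that of Tssk6. Likeness at these points was part of how Spatc1 was picked, so the shared direction is no separate observation either. Between the members, r was highest for Tssk2 with Tssk3 (0.977) and lowest for Tssk5 with Tssk6 (0.143), and no member was among the 3 genes most like another.

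Of 10 partners and substrates of the family, 5 had their highest level in a spermatid stage in both libraries, namely Tsks, Tsacc, Odf2, Crem and Pdpk1. Among all genes ranked the share was 32.7% in the high-fat library and 32.6% in the other. In the high-fat library Tsks, the substrate that binds TSSK1 and TSSK2, was at 43.9 CPM in spermatocytes near the divisions, 228 CPM in early, 540.1 CPM in middle and 698 CPM in late round spermatids, and 718 CPM in elongating ones. In the tissue-titled library it was at 39.0, 194, 430.5, 695 and 779 CPM in the same stages. Tsacc, the co-chaperone of TSSK6, was at 834 CPM in the high-fat library and 866 CPM in the other already in spermatocytes near the divisions, and at 1579 and 1478 CPM in elongating spermatids. Odf2, an outer dense fibre protein that TSSK4 phosphorylates in mice, was likewise at 1723 CPM in the high-fat library and 1734 CPM in the other before the divisions, and at 3423 and 3493 CPM in elongating spermatids. The elongating over spermatocyte ratio in the high-fat library and the other was 1.89 and 1.71 for Tsacc and 1.99 and 2.01 for Odf2. For Tsks it was 16.3 and 20.0. In Sertoli cells Tsacc was at 493 CPM in the high-fat library and 570 CPM in the other, and Odf2 at 1444 and 1544 CPM.

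Crem, the transcription factor of spermatid genes, was highest in middle round spermatids, at 707 CPM in the high-fat library and 738 CPM in the tissue-titled library. Pdpk1, an upstream kinase of many serine kinases, was highest in late round spermatids, at 182 CPM in the high-fat library and 171 CPM in the other, but within counting error of its level in leptotene and zygotene spermatocytes, 165 and 144 CPM, with ratios of 1.11 (0.964 to 1.27) and 1.19 (0.984 to 1.44). Over all spermatids none of the 10 was past 1.5-fold, against 20% of genes higher and 14.2% lower, and their median log2 ratio was 0.00031. There Hsp90aa1, a chaperone, had the largest ratio, 1.43 (1.42 to 1.45), and Tsks had 1.07 (1.05 to 1.08). In early round spermatids 1 of the 10 was past it, Pdpk1 with 1.71 (1.55 to 1.89), against 21.8% of genes higher and 13.1% lower. In middle round spermatids 2 were, Pdpk1 with 2.31 (2.16 to 2.48) and Hsp90aa1 with 1.57 (1.53 to 1.60), against 25.9% higher and 18.8% lower.

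Among 11 other protein kinases of germ cells, 3 had their highest level in a spermatid stage in both libraries, Camk4, Mak and Hipk4. That count is near the share of all genes ranked, 32.7% in the high-fat library and 32.6% in the tissue-titled library. Hipk4, a kinase of the spermatid head, was at 28.5 CPM in the high-fat library and 28.6 CPM in the tissue-titled library in spermatocytes near the divisions and at 122 CPM in the high-fat library and 111 CPM in the other in early round spermatids. Camk4, a calcium-regulated kinase, was at 7.23 CPM in the high-fat library and 4.76 CPM in the other near the divisions and at 149.6 and 136 CPM in middle round spermatids. Nek2, Haspin and Aurkc, kinases of chromosome division, were highest in spermatocytes near the divisions, though in the tissue-titled library Nek2 and Aurkc were within counting error of their pachytene levels. Aurkc was also one of the markers used to name that stage, so its peak there is not independent of the name. Over all spermatids Aurkc was the 1 of 11 past 1.5-fold, against 20% of genes higher and 14.2% lower. It was at 27.0 CPM in the high-fat library and 5.91 CPM in the other, a ratio of 4.57 (4.17 to 5.01). The median log2 ratio of the 11 was -0.25.

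**Figure D4:**
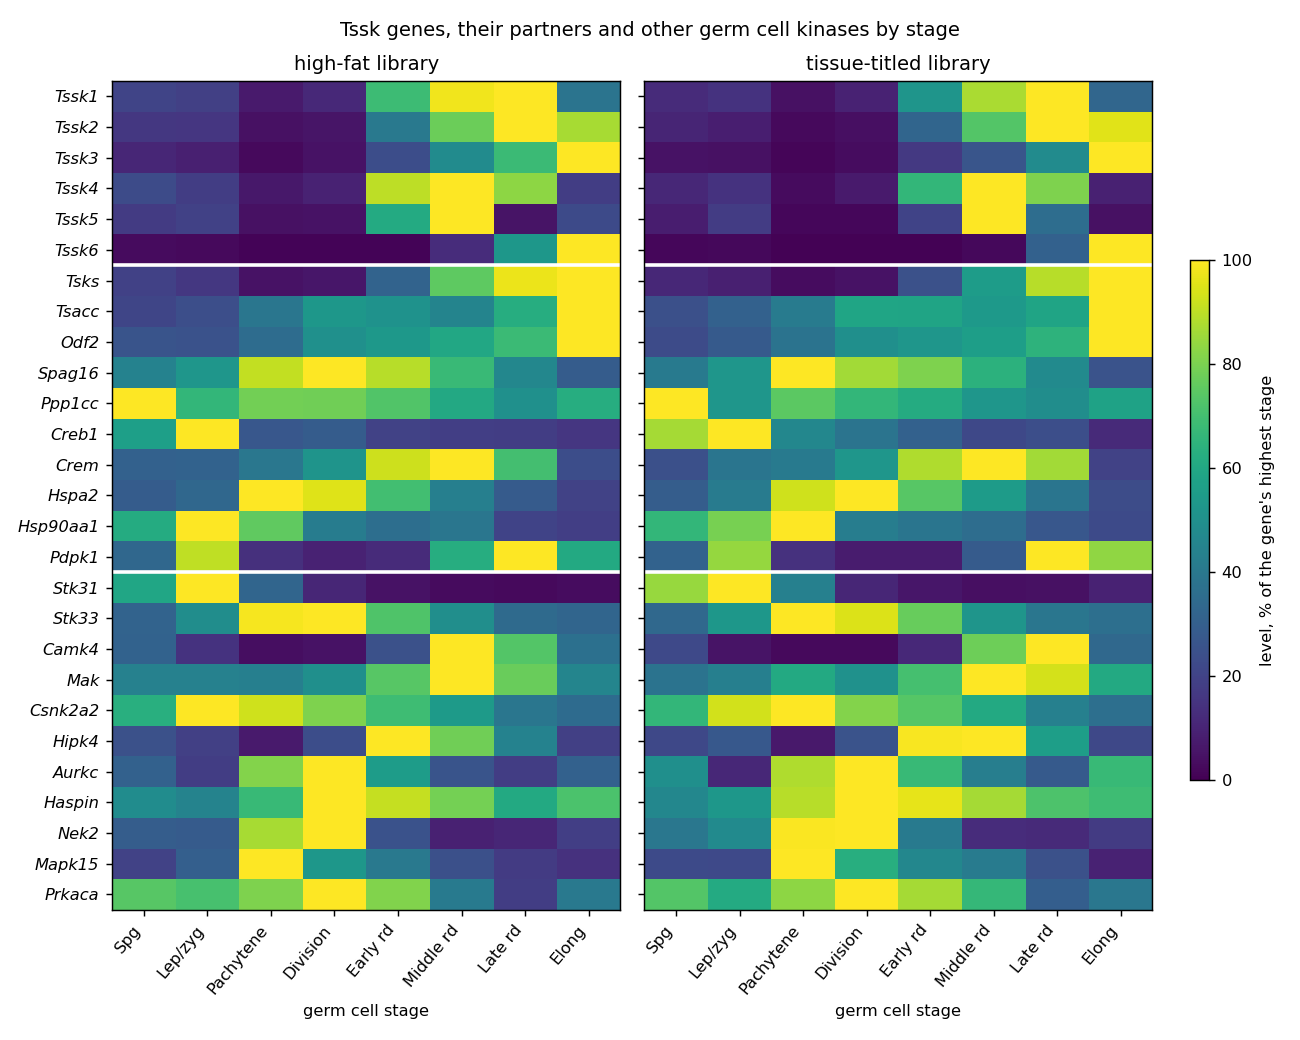
Level of the 6 Tssk genes (top block), 10 partners and substrates (middle block) and 11 other germ cell kinases (bottom block) in 8 germ cell stages, as a percent of each gene's highest stage (colour), with the high-fat library on the left and the tissue-titled library on the right. All 6 Tssk genes have their brightest stage among the 4 spermatid stages on the right of each panel, as do 5 of 10 partners and 3 of 11 other kinases. Among all genes ranked the share was 32.7% in the high-fat library and 32.6% in the other.

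Among the genes that overlap members on the opposite strand, Dgcr2 was highest in late round spermatids in both libraries, as Tssk1 was. In the high-fat library Dgcr2, a membrane protein gene around Tssk1, was at 27.1 CPM in early, 64.3 CPM in middle and 77.1 CPM in late round spermatids and 34.5 CPM in elongating ones. In the tissue-titled library it was at 17.7, 29.5, 57.4 and 20.4 CPM in the same stages. Its elongating over late ratio was 0.448 (0.339 to 0.583) in the high-fat library and 0.355 (0.202 to 0.579) in the other, close to the ratios of Tssk1. Its early over spermatocyte ratio was 2.20 (2.00 to 2.41) in the high-fat library and 1.98 (1.77 to 2.22) in the other, against 5.86 and 5.47 for Tssk1. Between the libraries, Dgcr2 had a ratio of 1.52 (1.45 to 1.59) over all spermatids, against 1.01 for Tssk1. Without strand the counts of the pair are uncertain, and a sharing of reads was not tested. Ndufa13, a subunit of respiratory complex I next to Tssk6, was at 447.5 CPM in the high-fat library and 276 CPM in the other in late round spermatids. In spermatocytes near the divisions, where Tssk6 was at 7.10 CPM in the high-fat library and 3.88 CPM in the other, Ndufa13 was at 152 and 144 CPM. Yjefn3 was at 1.73 CPM or less in every spermatid stage.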

How the data were processed

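The deposited values are whole-number UMI counts per gene and cell barcode from the authors, not normalised. Per the file headers the tables were written by PISA 1.0, and the submitters' processing notes name Cell Ranger 2.1.1. For the aligner, genome build, annotation and strand the entry is "not given in the sources used here". Both libraries hold 1507 barcode names in common (11.9% of the high-fat library, 10.9% of the other), which are running labels and not sequences.

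Cells needed 500 UMIs, 250 genes and at most 20% mitochondrial UMIs, which removed 3 barcodes of the high-fat library and 2 of the other. Scrublet in scanpy 1.11.5, at an expected 6%, called 462 doublets in the high-fat library and 517 in the other, which were left out. Cells were scaled to 10000 UMIs and clustered jointly on 2000 variable genes, 50 principal components, 20 neighbours and Leiden resolution 1 (leidenalg 0.10.2), into 24 clusters. The 27 member and listed genes were left out of the variable genes. Aurkc and Hspa2 of the lists were still among the markers used to name clusters, for spermatocytes near the divisions and pachytene spermatocytes. Clusters took the class with most markers among their top 10 genes within a library, or otherwise the class whose markers, 3 or more, had the largest mean log2 fold. A cluster more than 3 times shallower than its library with no marker among the top 10 stayed unnamed, and the library with most of its cells decided this, a rule set after the clusters were seen.

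Counts were summed per stage and library as CPM, with exact Poisson intervals for levels, conditional binomial for ratios and Clopper-Pearson for shares (scipy 1.17.1), all 95% and for counting error only. The background share of genes past 1.5-fold used genes with at least 50 counts over both libraries. The intervals for levels and ratios were tried on simulated counts that held counting error alone, the error they assume. That trial therefore cannot speak to spread between cells or animals. Promoter sequences are from RefSeq. Members and lists were chosen with earlier results of these data known. Named genes are the 6 members, the partner and kinase lists, the 3 genes most like each member among those with at least 500 germ cell counts in each library, and overlapping genes. Alternatives were other clustering settings, each library on its own, equal weighting of cells, subtraction of the Sertoli level, leaving out clusters over 90% from 1 library, a minimum of 2000 UMIs, doublets kept, median-ratio scaling, a fold of 2 and thinning.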

Additional observations from a re-analysis of the deposited data

Results flagged for a closer look

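Tssk6 stood far above its level in any named stage in cells that belong to no named stage and enter only the sums over all kept cells. Unnamed cluster 22 held 40 cells of the high-fat library and 47 of the tissue-titled library, with medians of 2039.5 and 1810 UMIs, and had no marker of a named class among its leading genes. The markers of its best class had a mean log2 fold of 1.56, above the 0.25 needed for a name. It stayed unnamed through the depth rule, which was set after the clusters were seen, so these cells may belong to a named class. Its Tssk6 level was 3957 CPM (3584 to 4358) in the high-fat library and 4660 CPM (4272 to 5073) in the tissue-titled library, above the limit that a count of 0 allows, which is 28.8 and 26.3 CPM. A Tssk6 UMI was seen in 100% (91.2 to 100) and 95.7% (85.5 to 99.5) of these cells, against 11.2% and 6.82% of Sertoli cells at medians of 1532 and 1348 UMIs. In the same cells Tssk3 was at 567 CPM (431 to 731) in the high-fat library and 850 CPM (689 to 1036) in the other, against 617 CPM (581 to 655) and 612 CPM (558 to 669) in elongating spermatids, so that in the tissue-titled library the level in these cells was the higher one. Tssk2 was at 403 CPM (291 to 545) and 464 CPM (348 to 607), and Tssk1 at 163 CPM (95.1 to 261) and 140 CPM (80.1 to 228). The members were left out of the genes used for clustering, and Tssk6 was then found among the 10 leading genes of this cluster, with Pga5, Azin2, Neurl1a and Tppp2.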

How the results depend on the processing

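All 6 genes kept a spermatid stage as their highest under every setting but one: with clusters over 90% from 1 library left out, which leaves elongating spermatids alone among the spermatid stages, it was 5 in the high-fat library and 4 in the other. Of 120 single peak stages 110 were the same, and 8 of the other 10 came from that setting. The count of members at least 1.5-fold higher over spermatids, 1, became 0 with 4000 variable genes, with each library clustered on its own, with the Sertoli level subtracted, with a fold of 2 and with the 4 stages weighted equally, and 2 with clusters over 90% from 1 library left out. Over all kept cells it became 0 with median-ratio scaling, with a fold of 2 and with thinning to 2000 UMIs. The log2 ratios kept their direction in 69 of 84 values over spermatids, 41 of 52 in early, 41 of 53 in middle and 49 of 53 in late round spermatids, 47 of 58 in elongating ones and 33 of 36 over all kept cells. Of ratios past 1.5-fold, directions turned for Tssk5 in early round spermatids (-0.37 at resolution 2), Tssk6 in middle and Tssk5 in late round spermatids (-0.24 and 1.14 with doublets kept) and Tssk6 over spermatids (-0.55 with the Sertoli CPM subtracted); the cause was not tested. Smaller ratios turned too, as in early round spermatids, where Tssk1, Tssk2 and Tssk4 were at -0.29, -0.23 and -0.38 with each library clustered on its own and Tssk3 at -1.32 with the Sertoli CPM subtracted. Without cluster 22 the log2 ratio of Tssk6 over all kept cells was 0.64, against 0.59. Where a level lay below the Sertoli level, subtraction gave no value. Without a minimum count, 24.3% of genes were higher and 17.9% lower over spermatids. The weighting by stage, the subtraction of counts per cell, the naming of cluster 10, leaving out cluster 22 and the 10 sorted groups were chosen after seeing the data. No paired analysis was possible because there is 1 library of each title. With 1 library of each title, differences between libraries and between diets cannot be told apart.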
